A study of Nannospalax ehrenbergi and Mus musculus with 25 samples.

Results

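The 10 genes described here encode the contractile apparatus of smooth muscle: Acta2, Actg2, Myh11, Tagln, Cnn1, Smtn, Lmod1, Mylk, Myocd and Synpo2. They were chosen by name for that role, with their levels in these same libraries already known, so every count over them is a description of these libraries and no independent evidence. All 10 were found in both deposited tables, among 27988 genes measured in the blind mole rat Spalax and 47593 in the mouse.

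Smooth muscle cells line blood vessels and contract when myosin light chain kinase phosphorylates the light chains of smooth muscle myosin, which then pulls on smooth muscle actin. In skeletal muscle tissue most of these genes are known mainly from the walls of arterioles and from pericytes, while the fibres themselves use other actins and myosins. Synpo2 is an exception, being also made in skeletal muscle at the Z-disc. Fibroblasts that become myofibroblasts in wounds, scars and tumor stroma switch on part of the same programme, Acta2 above all, usually without Myh11. Myocardin, encoded by Myocd, is the coactivator that binds serum response factor at the promoters of most of these genes.

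RNA was sequenced from neck muscle and from lesions that followed one subcutaneous injection of the carcinogen 3-methylcholanthrene (3MCA) on the left side of the neck, 1 mg in Spalax and 200 µg in male C57BL/6 mice aged 3 to 4 months. The 4 Spalax controls were untreated females, biopsied under anesthesia from the side labelled uninjected and then left to recover. Per the study's methods, animals with tumors and control mice were instead sampled under isoflurane after breathing had stopped. The 4 tolerant Spalax, 3 males and 1 female, were injected and stayed free of tumors, and their muscle was taken from the injected side (IS) after 18 months (animals 2251 and 2261) or 30 months (2218 and 2375). In 2 female Spalax a granuloma grew (600 at 14 months, 976 at 16 months), described by pathology as spindle cell proliferation with fibrosis. In 2 Spalax a fibrosarcoma grew (the female 2240 at 18 months, the male 2230 at 30 months), and in each of these 4 animals both the lesion (IS) and muscle of the uninjected side (UIS) were sequenced. The mouse libraries came from 3 untreated controls (M1, M2 and M5) and from the IS and UIS of 3 animals with fibrosarcoma (1019 at 14 weeks, 1023 at 12 weeks and 512 at 11 weeks). The Spalax were wild-caught and of uncertain age. The paper puts the treated ones at 2 to over 10 years, and the labels carry 2 and 10 years for every Spalax. They are neither inbred nor of one age. The 4 controls and the 4 tolerant animals also differ in sex and in the side sampled, and these cannot be told apart from the treatment.

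Values are the deposited normalised counts, reads divided by a factor for each library, so they compare 1 gene between libraries of one species. Depth ran from 17025447 to 23386729 reads in the 16 Spalax libraries and from 22143060 to 31179183 in the 9 mouse libraries. One read was worth 0.59968 to 1.42166 units in Spalax and 0.516868 to 1.43964 in the mouse. All control and tolerant libraries carried dual indexes and all UIS and IS libraries single indexes, so the index type and these groups cannot be told apart. The summed level of 12 skeletal muscle fibre genes in Spalax was 1280000 to 3844000 in the muscle libraries without a lesion and 226.1 to 5676 in the 4 lesions. In the mouse, 15 genes of that list were found and summed to 1344000 to 5466000 in muscle and 327.7 to 102500 in the fibrosarcomas. The library of tolerant animal 2251 stood apart in its group, with a fibroblast sum of 331700 against 12020 to 64400, a leukocyte sum of 14860 against 655.4 to 3423 and a skeletal fibre sum of 1280000 against 2707000 to 3844000. The lesion libraries therefore held far less muscle fibre RNA than the muscle they were compared with, and in bulk tissue fewer cells of a type and less RNA per cell cannot be told apart.

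Because the actins are close copies, the start of the coding sequence is shown for the mouse genes that the results turn on (GENCODE vM21 on GRCm38, first 60 coding bases, sense strand, 5′ to 3′). Capitals mark bases that differ from the aligned Acta2 base, with 1 codon gapped in Actg2.
Acta2: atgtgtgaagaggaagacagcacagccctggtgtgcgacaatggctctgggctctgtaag
Actg2: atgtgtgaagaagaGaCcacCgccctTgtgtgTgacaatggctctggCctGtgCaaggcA
Acta1: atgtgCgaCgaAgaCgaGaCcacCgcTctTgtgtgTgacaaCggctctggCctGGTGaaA
Actc1: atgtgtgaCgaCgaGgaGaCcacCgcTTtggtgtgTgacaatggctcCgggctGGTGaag

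Over these 60 bases Actg2, the other smooth muscle actin, differed from Acta2 at 9 positions, the skeletal actin Acta1 at 17 and the cardiac actin Actc1 at 14. Over the whole coding sequence 84.4% of aligned bases were shared by Acta2 and Actg2, 85.4% by Acta2 and Acta1 and 82.5% by Acta2 and Actc1. Reads ran over 101 cycles before trimming. The closest 101-base stretch of Actg2 differed from Acta2 at 10 bases, that of Acta1 at 8 and that of Actc1 at 9. None of the 1935 windows of 101 bases in Acta2 transcripts occurred whole in another of the 6 actins, so a full-length mouse read has 1 exact home among them. The same could not be read for Spalax, whose genome was not used here.

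The actins come first, because they form the thin filament on which contraction runs. Acta2 (GRCm38 chr19:34241090-34255590, minus strand), the alpha smooth muscle actin that also marks myofibroblasts, stood at 2264, 3964, 3535 and 3723 normalised counts in the Spalax controls 1042, 1075, 2095 and 6038. In the granuloma animals Acta2 was 1194 on the UIS and 2528 on the IS of animal 600, and 1034 and 277.9 in animal 976. The 2 granulomas thus moved in opposite directions from their own uninjected sides, and the mean difference of IS from UIS was -0.41 on the log2(value + 1) scale (SE 1.02, limma adjusted p = 0.795). Its sign turned with edgeR (0.39) and DESeq2 (0.34). In the Spalax fibrosarcomas Acta2 was lower on the IS in both animals, at 245.3 against 1511 in 2230 and 502.2 against 902 in 2240. That log2 difference was -1.73 (SE 0.48, adjusted p = 0.0507), just outside the threshold of 0.05, and was called without the IS library of 2240 (-2.25, adjusted p = 0.0251) and by DESeq2 (adjusted p = 0.00778).

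In the mouse the direction was the other one in 2 of 3 animals. Acta2 in mouse 512 rose from 1172 on the UIS to 18510 on the IS, the highest value of the mouse libraries, and in mouse 1023 it went from 857 to 2640. In mouse 1019 it went from 2845 to 2353, so the sides overlapped. The log2 difference was 1.78 (SE 0.87, adjusted p = 0.14) and did not pass the test. The difference between the mouse and Spalax fibrosarcoma effects on Acta2, tested as an interaction of species and side, was -3.51 (SE 1.25, adjusted p = 0.149). That interaction did not pass the limma threshold either, though DESeq2 on recovered reads called it.

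Actg2 (chr6:83512905-83536265, minus strand), the gamma smooth muscle actin of gut and bladder wall, was low in muscle, at 7.274 to 126.7 normalised counts in Spalax and 2.879 to 87.23 in the mouse. It was higher on the IS than on the UIS in each of the 7 animals with a lesion. In granuloma 600 it reached 1833 against 15.68 on the UIS, and in granuloma 976 only 18.73 against 9.422. The 2 Spalax fibrosarcomas held 14.99 against 9.952 and 29.51 against 7.274. In mice the IS values were 33.6, 201.7 and 1673 for 1019, 1023 and 512, against 29.02, 5.157 and 2.879 on the UIS. The log2 difference was 3.85 (SE 2.10, adjusted p = 0.226) in granuloma, 1.21 (SE 0.60, adjusted p = 0.175) in Spalax fibrosarcoma and 4.67 (SE 1.49, adjusted p = 0.0419) in mouse fibrosarcoma.

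The mouse result for Actg2 depended on the fit and on single libraries. It missed the threshold with the animal as a block (adjusted p = 0.0761), without any filter on low values (0.0501), and when the IS or UIS library of mouse 512 (0.0750 and 0.113) or of mouse 1023 (0.10 and 0.11) was left out. Without both libraries of mouse 512 the log2 difference was 2.62 (adjusted p = 0.139).

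**Figure D1:**
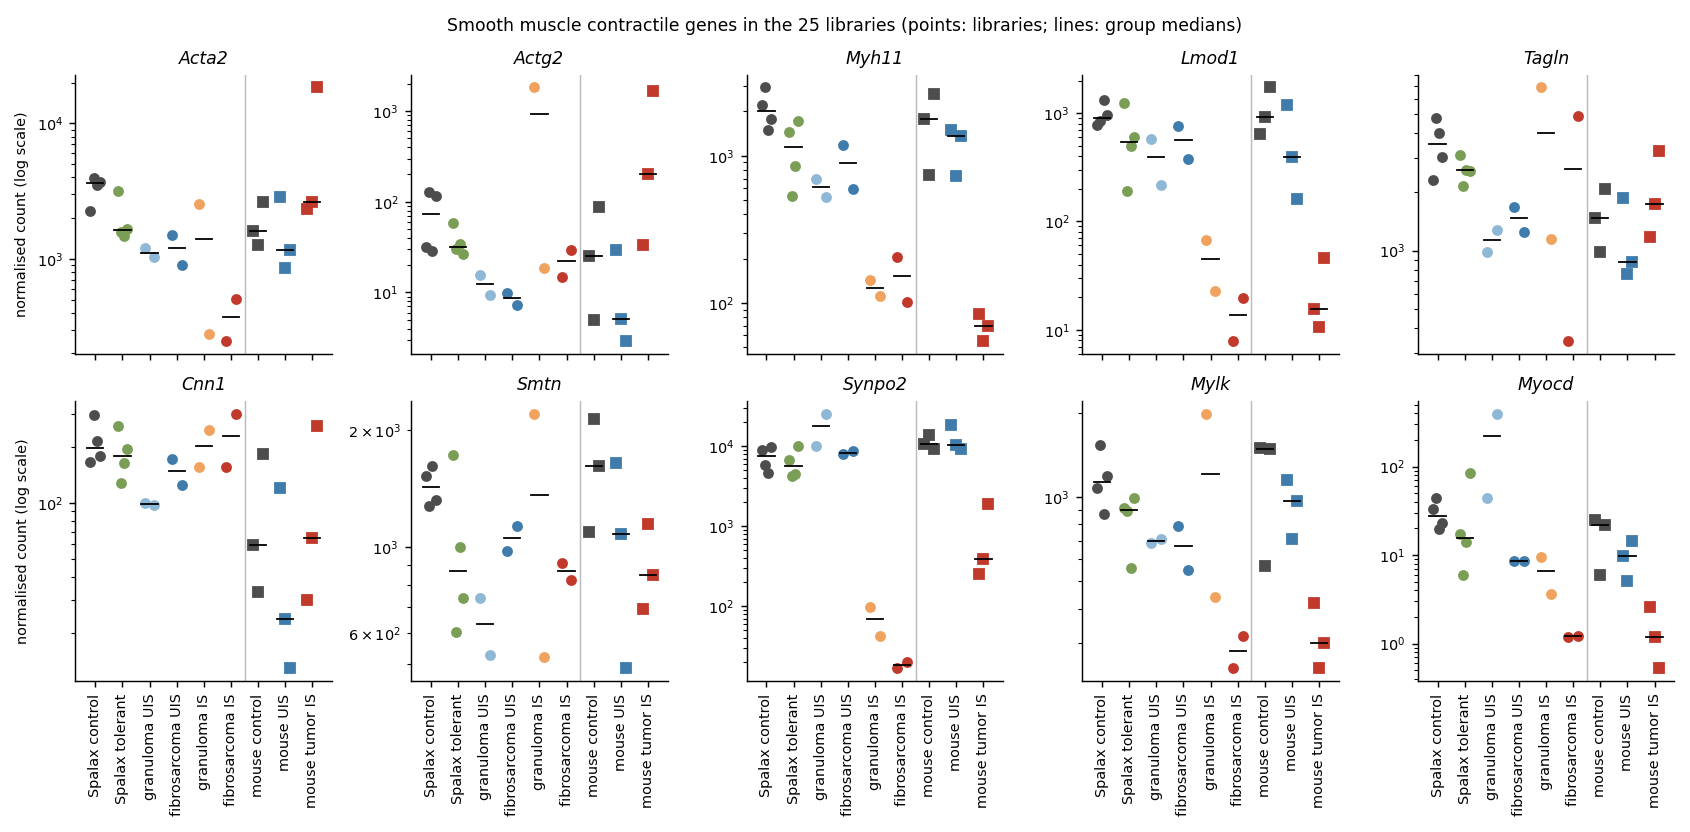
Normalised counts (log axis, its own range for each gene) of the 10 smooth muscle genes in the 25 libraries by group, with circles for Spalax libraries, squares for mouse libraries and a line at each group median. Acta2, Actg2 and Tagln spread widely among the lesions, with mouse 512 at 18510 for Acta2 and granuloma 600 at 1833 for Actg2, while every lesion lies below all muscle libraries of its species in Myh11, Lmod1 and Synpo2.

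The motor was lower than on the UIS in every lesion, Acta2 in some of them and Actg2 in none. Myh11 (chr16:14194535-14291372, minus strand), the heavy chain of smooth muscle myosin and the most specific marker of the mature cell, was lower on the IS of all 7 animals. Granulomas 600 and 976 held 142.3 and 111.2 normalised counts against 698.2 and 527.6 on the UIS. Fibrosarcomas 2230 and 2240 held 203.9 and 101.4 against 1190 and 590.4. Mouse fibrosarcomas 1019, 1023 and 512 held 84.25, 54.57 and 69.48 against 1496, 726.1 and 1372. No lesion value overlapped any muscle value of its species.

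Myh11 fell in all 3 comparisons, with a log2 change of -2.26 in granuloma (SE 0.44, limma adjusted p = 0.0231), -2.53 in Spalax fibrosarcoma (SE 0.54, adjusted p = 0.0273) and -4.04 in mouse fibrosarcoma (SE 0.38, adjusted p = 0.00142). The Spalax and mouse fibrosarcoma effects differed by 1.51 (SE 0.68, adjusted p = 0.24), which did not pass the test. The Spalax fibrosarcoma call of Myh11 was lost without the IS library of 2240 (-2.03) and without either UIS library. Its granuloma call was lost whichever library was left out, and also with scaling by total reads. That scaling also took calls away among the 10 genes in Spalax fibrosarcoma, not from Mylk alone, as counted below. In mouse 512, mouse 1023 and granuloma 600, then, Acta2 was above its UIS level while Myh11 was below it.

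Lmod1 (chr1:135324807-135368065, plus strand), leiomodin 1, which nucleates smooth muscle actin filaments, fell in all 3 lesion comparisons. In granulomas 600 and 976 it was 66.78 and 22.96 against 574 and 215.5 on the UIS. In fibrosarcomas 2230 and 2240 it was 7.796 and 19.67 against 753.5 and 374.6. In mice 1019, 1023 and 512 it was 15.51, 10.68 and 46.32 against 1189, 392.9 and 159.8. The log2 change of Lmod1 was -3.13 (SE 0.81, adjusted p = 0.0462), -5.30 (SE 0.66, adjusted p = 0.00826) and -4.34 (SE 0.87, adjusted p = 0.00943) in that order. In granuloma the call was lost with edgeR on recovered reads, where its adjusted p was 0.0592. It was also lost with scaling by total reads and whichever library was left out.

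Mylk (chr16:34745210-35002420, plus strand), the kinase that starts contraction and that non-muscle cells also make, was lower on the IS in 6 of 7 animals. It was 1986 in granuloma 600 against 683.8 on the UIS, and 439.3 against 711.4 in granuloma 976 (log2 difference 0.42, SE 0.74, adjusted p = 0.701). In fibrosarcomas 2230 and 2240 it was 244.7 and 319 against 787.6 and 550.4, and in mouse fibrosarcomas 420.2, 245 and 301.1 against 1150, 710.6 and 973.2. Mylk fell by 1.23 on the log2 scale in Spalax fibrosarcoma (SE 0.33, adjusted p = 0.0459) and by 1.56 in mouse fibrosarcoma (SE 0.31, adjusted p = 0.00953). The Spalax call was lost with the animal as a block (adjusted p = 0.0716) and without the IS library of 2230 (0.0840), and scaling by total reads cut the log2 change to -0.43 in Spalax and -0.49 in the mouse, neither of them called.

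Synpo2 (chr3:123076519-123236149, minus strand) encodes an actin-bundling protein of smooth muscle dense bodies that is also made in skeletal muscle, at the Z-disc. In muscle it stood at 4199 to 25360 normalised counts in Spalax and 9240 to 18500 in the mouse. On the IS it was 96.54 and 42.29 in granulomas 600 and 976, and 16.79 and 20.29 in fibrosarcomas 2230 and 2240. In the mouse fibrosarcomas it was 255.8 in 1019, 394.4 in 1023 and 1903 in 512. Synpo2 fell in all 3 comparisons, with a log2 change of -7.94 in granuloma (SE 0.63, adjusted p = 0.00541), a 245-fold difference, -8.75 in Spalax fibrosarcoma (SE 0.27, adjusted p = 0.000652) and -4.39 in mouse fibrosarcoma (SE 0.75, adjusted p = 0.00589).

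Among the mouse lesions the summed skeletal fibre list was lowest in 1019, at 327.7, and highest in 512, at 102500, as Synpo2 was. On the UIS the extremes did not match, since Spalax 976 had the highest Synpo2 (25360) with the lowest fibre sum (1727000) and mouse 512 the lowest Synpo2 (9240) with the highest sum (5466000). The part of muscle fibres in the level of Synpo2 was not tested. The Synpo2 effect differed between species by -4.36 (SE 1.02, adjusted p = 0.0527), outside the threshold. Without both libraries of mouse 512 this interaction was -3.31 with an adjusted p of 0.0248. It was also called when the mouse IS library 512 (adjusted p = 0.0229) or 1019 (0.0341) was left out.

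The regulators of the filament were less uniform. Tagln (chr9:45929619-45936058, minus strand), the actin-binding protein SM22 alpha, ranged from 341.8 to 6898 normalised counts among the Spalax lesions. It was above the UIS in granuloma 600 (6898 against 986.5) and fibrosarcoma 2240 (4938 against 1249), and below it in granuloma 976 (1141 against 1277) and fibrosarcoma 2230 (341.8 against 1676). The log2 difference of Tagln was 1.32 (SE 0.86, adjusted p = 0.298) in granuloma and -0.15 (SE 1.31, adjusted p = 0.937) in fibrosarcoma. In fibrosarcoma it was 1.77 (adjusted p = 0.0267) without the IS library of 2230 and -2.08 (adjusted p = 0.0138) without that of 2240, so its sign rested on single animals. In mice Tagln was 1181, 1733 and 3261 on the IS against 1867, 757 and 873.9 on the UIS of 1019, 1023 and 512 (log2 difference 0.81, SE 0.49, adjusted p = 0.218).

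In the mouse annotation 67.9% of the exon bases of Tagln lie under genes of the opposite strand, mainly Pcsk7, as do 16.3% of those of Smtn and 6.85% of those of Mylk. Whether reads were counted by strand is not given in the sources used here, so reads of these 3 genes and their antisense partners cannot be told apart.

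Cnn1 (chr9:22099216-22109630, plus strand), calponin 1, which restrains actomyosin, was higher on the IS in 3 of 4 Spalax lesions. It was 156.1 and 247.1 in granulomas 600 and 976 against 100.1 and 97.75, and 155.3 and 300.6 in fibrosarcomas 2230 and 2240 against 172 and 124.9. In mice it was 29.98, 64.65 and 257.9 on the IS against 120.9, 23.72 and 12.96 on the UIS. The log2 difference of Cnn1 was 0.98 (SE 0.53, adjusted p = 0.225), 0.56 (SE 0.48, adjusted p = 0.406) and 1.22 (SE 1.07, adjusted p = 0.386), none of them called. Smtn (chr11:3517523-3540612, minus strand), smoothelin, a cytoskeletal protein of contractile cells, was called in no lesion comparison. It was 520.8 to 2206 in the Spalax lesions against 525.3 to 1135 on the UIS, and 692.1 to 1148 in the mouse lesions against 486.6 to 1649. The log2 difference of Smtn was 0.78 (SE 0.73, adjusted p = 0.458) in granuloma, -0.29 (SE 0.23, adjusted p = 0.377) in Spalax fibrosarcoma and -0.12 (SE 0.47, adjusted p = 0.851) in mouse fibrosarcoma.

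Myocd (chr11:65176561-65269989, minus strand), the coactivator, was near the limit of counting in the lesions. It was seen in 13 reads in granuloma 600 and 6 in granuloma 976, against 37 and 335 on the UIS. In fibrosarcomas 2230 and 2240 it had 2 reads each against 6 and 7, and in mice 1019, 1023 and 512 it had 5, 2 and 1 against 8, 5 and 10. The direction was therefore down in all 7 animals, but 4 of the 7 IS counts lie under 3 reads. In granuloma the log2 change was -4.27 (SE 1.22, adjusted p = 0.0578). In both fibrosarcoma comparisons Myocd fell under the filter on low values and was not tested. The UIS of Spalax 976, with 394.5 normalised counts, was far above every other Spalax library, of which the next was tolerant animal 2375 at 85.78.

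**Figure D2:**
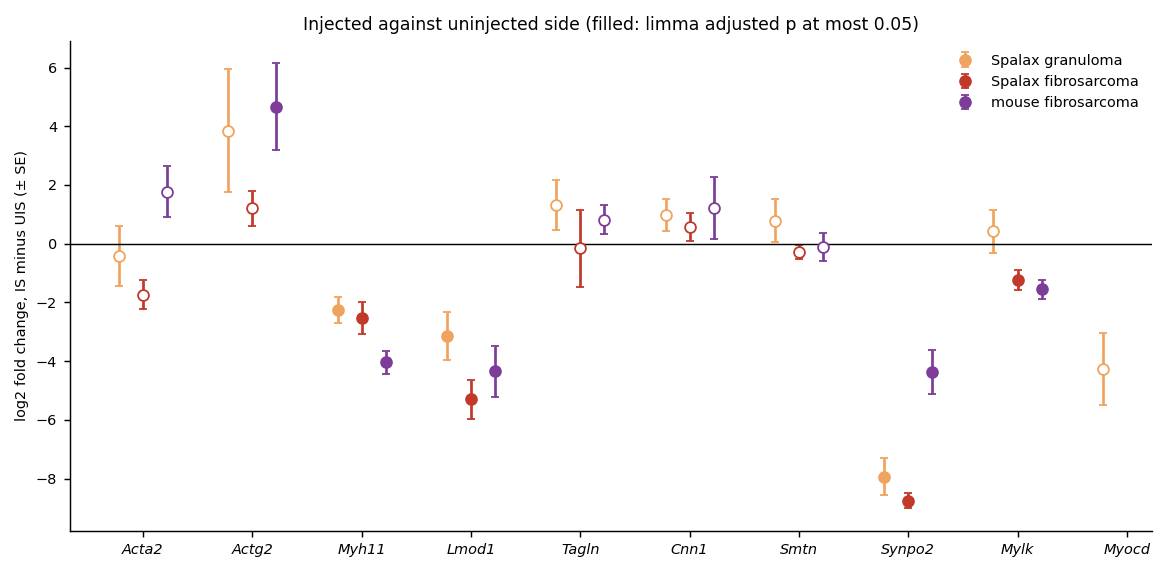
Log2 fold change of IS from UIS on the log2(value + 1) scale for the 10 genes in Spalax granuloma, Spalax fibrosarcoma and mouse fibrosarcoma, with bars of 1 SE and filled points for a limma adjusted p of at most 0.05. Myh11, Lmod1 and Synpo2 lie below 0 and are filled in all 3 comparisons, down to -8.75 for Synpo2, Actg2 lies above 0 in all 3 and is filled in the mouse only, and Myocd was tested in granuloma only.

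Counted over the list, granuloma IS against UIS gave 0 genes higher and 3 lower (Myh11, Lmod1 and Synpo2) of 10 tested, where 11.7% of all genes tested were called higher and 12.6% lower. Spalax fibrosarcoma gave 0 higher and 4 lower (the same 3 and Mylk) of 9 tested, where 17.4% of all genes were higher and 19% lower. Mouse fibrosarcoma gave 1 higher (Actg2) and 4 lower (Myh11, Lmod1, Mylk and Synpo2) of 9 tested, where 22.8% were higher and 22.3% lower. The median log2 difference of the tested members was 0.01 in granuloma, -1.23 in Spalax fibrosarcoma and -0.12 in mouse fibrosarcoma, against -0.01, 0.03 and 0.11 over all genes tested. With 2 libraries a side, granuloma kept no call for any gene when 1 library was left out, and Spalax fibrosarcoma kept none without either UIS library.

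Scaling by total reads in place of the deposited factors moved the median of all genes to 0.72 in granuloma, 0.83 in Spalax fibrosarcoma and 1.16 in mouse fibrosarcoma. The calls over all genes then went from 1718 higher and 1863 lower to 3370 and 1126 in granuloma, from 2550 and 2789 to 5169 and 1661 in Spalax fibrosarcoma, and from 3469 and 3401 to 7555 and 1675 in mouse fibrosarcoma. Under that scaling only Synpo2 remained called in granuloma.

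The difference between the 2 Spalax lesions was also tested directly. Fibrosarcoma IS against granuloma IS gave a log2 difference of -3.11 (SE 2.21) for Actg2, -1.74 (SE 0.78) for Mylk, -1.74 (SE 0.74) for Synpo2, -1.58 (SE 0.94) for Lmod1 and 0.19 (SE 0.55) for Myh11. Mylk, Synpo2 and Lmod1 did not overlap between the 2 lesions, being lower in both fibrosarcomas, but every adjusted p was 1. These 3 of 9 stand beside 14.7% of all genes that were lower without overlap. Limma called 0 of 9 members at the adjusted threshold (0% of all genes) and 0 at an unadjusted p under 0.05 (4.06% of all genes). edgeR called 0 (0%), and DESeq2 called Actg2 alone, where it called 1.05% of all genes. The interaction of lesion type and side ranged from -2.64 for Actg2 (SE 2.59) to 2.17 for Myocd (SE 1.53), with adjusted p between 0.946 and 0.970. It gave 0 calls of 10 by limma (0% of all genes), 0 at an unadjusted p under 0.05 (4.92%), 0 by edgeR (0%) and 0 by DESeq2 (0.539%).

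The interaction of species and side compared the Spalax and mouse fibrosarcomas over genes shared by symbol. Limma called 0 of the 9 members tested, where 2.01% of all genes were called higher and 1.94% lower. A block on the animal brought the calls over all genes down from 438 to 38, with 0 members, and scaling by total reads turned 223 higher and 215 lower into 143 and 278. edgeR called 0 members (3.53% of all genes) and DESeq2 called Acta2 and Synpo2 (15.4%). Acta2, Actg2, Synpo2 and Myh11 had the 4 widest species differences, and the value for Actg2 was -3.45 (SE 2.09, adjusted p = 0.381).

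Each smooth muscle protein has close relatives in other cells, and these gave a second view of the same libraries. The non-muscle forms Actb and Actg1 (cytoplasmic actins), Myh9 (non-muscle myosin heavy chain), Cnn2 and Cnn3 (other calponins) and Tagln2 (transgelin 2) rose on the IS in all 3 lesion comparisons, with all 6 chosen for naming after their values were seen. Actb rose by 2.80 on the log2 scale in granuloma, 2.53 in Spalax fibrosarcoma and 2.00 in mouse fibrosarcoma, and Cnn3 by 3.66, 2.46 and 2.59. Myh10, the other non-muscle heavy chain, rose by 4.15 in granuloma and 1.91 in mouse fibrosarcoma, while its 0.79 in Spalax fibrosarcoma (adjusted p = 0.658) was not called.

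Of the striated forms Acta1, Lmod2, Lmod3, Mylk2, Mylk4, Smtnl1 and Smtnl2 were called lower in all 3 comparisons. Acta1, the actin of skeletal fibres, changed by -9.94, -13.00 and -8.43 in the 3 comparisons, and Mylk2, the skeletal light chain kinase, by -11.53, -12.35 and -10.34. Lmod2, a striated leiomodin, changed by -11.32, -13.62 and -7.13. Of the relatives tested, 7 were higher and 8 lower of 20 in granuloma, where 11.7% and 12.6% of all genes were. In Spalax fibrosarcoma they were 6 and 11 of 21 (17.4% and 19% of all genes). In mouse fibrosarcoma they were 7 and 7 of 20 (22.8% and 22.3%). Actc1, the cardiac actin, was at -0.82 in granuloma (adjusted p = 0.754) and -3.95 in the mouse (adjusted p = 0.372), and was called lower in Spalax fibrosarcoma alone (-6.08). It was 22110 normalised counts on the IS of mouse 512 against 6523 on its UIS, but 7.711 and 1.551 on the IS of 1023 and 1019. Mouse 512 therefore had the highest Acta2, Actg2 and Actc1 of the mouse lesions together.

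**Figure D3:**
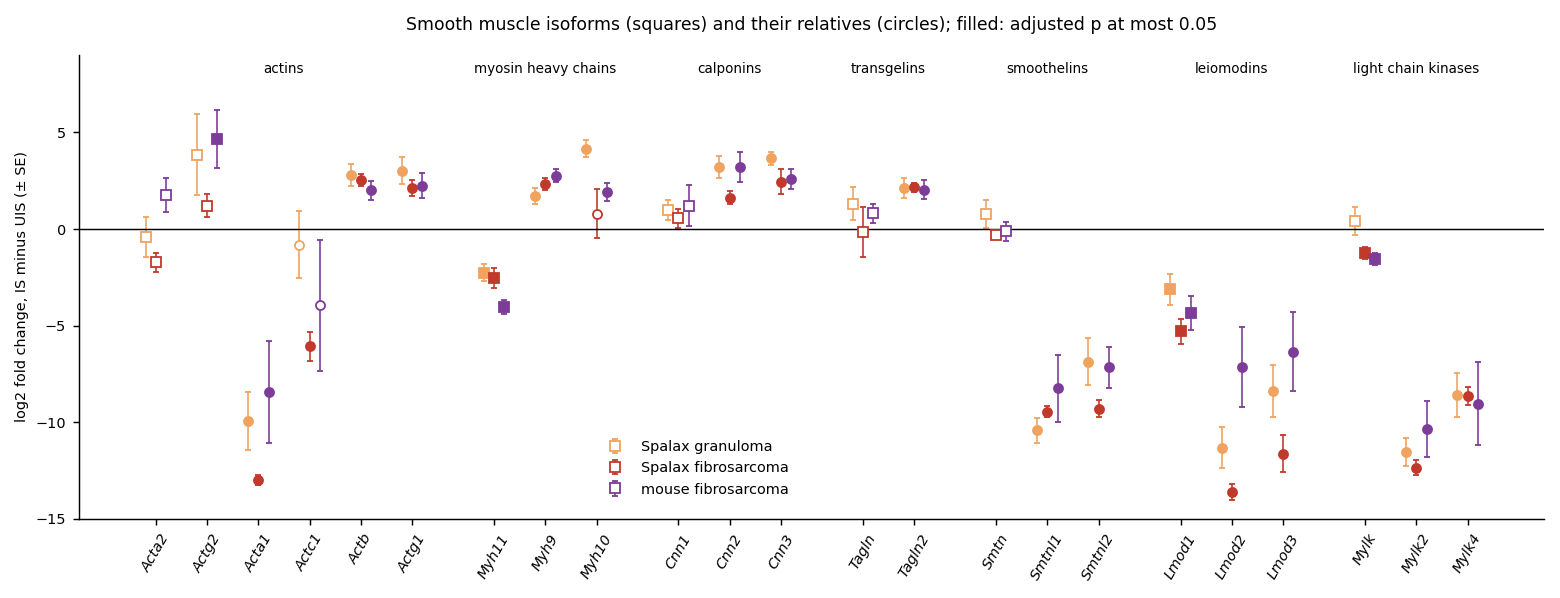
Log2 fold change of IS from UIS (points with bars of 1 SE, filled where the limma adjusted p is at most 0.05) for smooth muscle genes (squares) beside their non-muscle and striated relatives (circles), by protein family, in the 3 lesion comparisons. Non-muscle forms such as Actb and Cnn3 lie above 0 and striated forms such as Acta1 and Lmod2 far below, with Acta2 between Acta1 and Actb at -0.41, -1.73 and 1.78.

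Levels can be compared between genes only per length, which the mouse annotation allowed. For Tagln, Smtn and Mylk the overlap with genes of the opposite strand, given above, limits the place in this order. In control mouse muscle the median was 804.2 normalised counts per kb of exon for Synpo2, 739 for Tagln and 730.2 for Acta2, and the ranges of these 3 overlapped. Smtn followed at 369.8, its range below those of all 3, then Lmod1 at 235.6, Myh11 at 232.2 and Mylk at 132.2. Cnn1 at 21.74, Actg2 at 16.22 and Myocd at 3.422 closed the order, and from Smtn down each gene overlapped the next. On the IS the order of medians was Acta2 at 1202, Tagln at 871.5, Smtn at 193.1, Actg2 at 129.5, Synpo2 at 30.14, Mylk at 26.73 and Cnn1 at 23.63. Myh11 at 9.143, Lmod1 at 3.928 and Myocd at 0.1847 per kb came last there. Skeletal Acta1 stood at 216100 per kb in control muscle, and Actb at 2271 per kb in control muscle and 13590 in the lesions.

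The partners of these proteins were read from lists chosen for their function. Their counts stand beside the shares of all genes called higher and lower, 11.7% and 12.6% in granuloma, 17.4% and 19% in Spalax fibrosarcoma, and 22.8% and 22.3% in mouse fibrosarcoma, and a count near its share says nothing particular about a list. Of the genes for light chain phosphorylation, 1 was higher and 3 lower of 14 in granuloma, 3 and 3 of 14 in Spalax fibrosarcoma, and 2 and 2 of 17 in mouse fibrosarcoma. Ppp1r12b, a muscle form of the myosin phosphatase targeting subunit, changed by -4.0, -4.37 and -3.33 on the log2 scale, and the phosphatase catalytic subunit Ppp1cb by -2.69, -2.57 and -2.33, all called. Of the thin filament and adhesion partners, 8 were higher and 10 lower of 30 in granuloma, 8 and 12 of 30 in Spalax fibrosarcoma, and 10 and 11 of 29 in mouse fibrosarcoma. Pdlim3, a Z-disc protein, changed by -8.15, -10.36 and -6.30, and desmin (Des), the intermediate filament of muscle, by -7.77, -6.70 and -6.30. Tpm4 and Flna, the non-muscle tropomyosin and filamin A, were named after their values were seen and rose by 3.68 and 3.33 in granuloma.

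Of the smooth muscle receptors and channels, 2 were higher and 1 lower of 13 in granuloma, 0 and 2 of 13 in Spalax fibrosarcoma, and 3 and 7 of 17 in mouse fibrosarcoma. Ednra, the endothelin receptor of vessel wall, rose by 3.69 in granuloma (SE 0.61), as did Cacna1c, the L-type calcium channel, by 2.75. The 1 called lower there was Aoc3, at -3.37. In the mouse the largest were Adra1a, an adrenergic receptor, at -5.48, and the potassium channel Kcnma1 at -4.97. Of the transcription factors, 1 was higher and 2 lower of 17 in granuloma, 1 and 6 of 16 in Spalax fibrosarcoma, and 2 and 3 of 18 in mouse fibrosarcoma. Tbx18, a factor of mural cells, rose in all 3 by 2.45, 2.73 and 2.76, and Foxo4 fell in all 3, with log2 changes of -4.38, -4.05 and -2.92. Srf, the partner of myocardin, was at -1.37 (adjusted p = 0.213), -1.78 (adjusted p = 0.0461) and -0.62 (adjusted p = 0.224).

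Markers of the other cells in these tissues stand beside those changes. Of all genes tested, 11.7% were called higher and 12.6% lower in granuloma, and 17.4% and 19% in Spalax fibrosarcoma. In mouse fibrosarcoma these shares were 22.8% and 22.3%. A count near or below its share says nothing particular about a cell type. Fibroblast genes were higher in 12, 5 and 10 of 14 tested and lower in none, with a summed level of 1146000 to 2362000 in granuloma and 211500 to 551700 in Spalax fibrosarcoma against 18400 to 63150 on the UIS. In the mouse that sum was 239400 to 319500 against 6317 to 49100. Pericyte genes were higher in 2 and lower in 2 of 10 in granuloma, 1 and 2 of 11 in Spalax fibrosarcoma, and 1 and 4 of 12 in mouse fibrosarcoma. Leukocyte genes were higher in 3 and 6 of 9 in the Spalax lesions and 4 of 10 in the mouse. Cd79a, at -3.12 in Spalax fibrosarcoma, was the only one called lower in any of the comparisons. The leukocyte sum was 9682 to 18810 in the Spalax lesions against 1306 to 3702 on the UIS. In the mouse the sides overlapped, at 6480 to 47100 against 865.2 to 10980. Adipocyte genes were lower in 3 of 6, 5 of 8 and 8 of 8, and Schwann cell and nerve genes in 2, 3 and 3 of 8. Endothelial genes were lower in 0, 7 and 1 of 12, with a sum of 5471 to 9009 in the Spalax lesions against 14300 to 15610 on the UIS, and 2732 to 15470 against 13170 to 24140 in the mouse. Skeletal fibre genes were lower in 12 of 12, 12 of 12 and 13 of 14. The part of each of these in the changes of the 10 genes was not tested.

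Tolerant animals had been injected without growing a tumor, so their IS gives the comparison of a lesion with injected muscle. The lesions here pool granuloma and fibrosarcoma. They also differ from the tolerant libraries in index type and in the mix of sexes, whose part was not tested. Against the 4 tolerant libraries, the 4 Spalax lesions were lower in Myh11, Lmod1 and Synpo2 and higher in none of 9 members tested, where 24% of all genes were lower and 22.4% higher. The log2 difference was -2.93 for Myh11 (SE 0.40, limma adjusted p = 0.000623), -4.47 for Lmod1 (SE 0.71, adjusted p = 0.00134) and -7.40 for Synpo2 (SE 0.54, adjusted p = 2.2e-05). Acta2 was 3163, 1571, 1474 and 1670 in tolerant animals 2218, 2251, 2261 and 2375, a log2 difference of the lesions of -1.78 (SE 0.68, adjusted p = 0.0556). Without granuloma 600 this was -2.52 (adjusted p = 0.00165) and Mylk went from -0.68 (adjusted p = 0.362) to -1.34 (adjusted p = 0.0104). Without that library Myocd passed the filter and 6 of 10 members were called lower, with Acta2, Mylk and Myocd added, where 22.2% of all genes were lower. Without tolerant animal 2251 they were 4 of 10, with Myocd added, where 25.8% were lower. Scaling by total reads moved the median of all genes here to 0.71 and the calls from 3264 higher and 3502 lower to 5595 and 2194.

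In muscle that held no lesion, the Spalax groups also lay apart. Every UIS library of the 4 animals with a lesion was below every control in 7 of the 10 genes: Acta2, Actg2, Myh11, Tagln, Smtn, Lmod1 and Mylk. Over all genes tested, 6.2% were lower without overlap. Acta2 was 1160 ± 262.6 on the UIS and 3372 ± 759.1 in controls (SD, n = 4 each), a 2.89-fold difference, or -1.53 on the log2 scale (SE 0.24, unadjusted p = 7.794e-05, limma adjusted p = 0.155). Myh11 was 751.5 ± 300.6 against 2108 ± 619.6, at -1.52 (SE 0.30, adjusted p = 0.157). Tagln was 1297 ± 284.6 against 3539 ± 1086, at -1.42 (SE 0.26, adjusted p = 0.157).

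None of the 10 was called in that comparison by limma, as for every gene of the table (0%), while 8 had an unadjusted p under 0.05, where 16.6% of all genes did. edgeR called 0 (0% of all genes). DESeq2 called Acta2, Actg2, Myh11 and Tagln, where it called 3.74% of all genes. Actg2 had the widest difference, at 7.274 to 15.68 on the UIS against 28.69 to 126.7 in controls, which was -2.46 (SE 0.56, adjusted p = 0.159). Cnn1 at -0.79 (SE 0.28) overlapped. Myocd at 0.27 (SE 1.06) and Synpo2 at 0.71 (SE 0.40) lay on the other side of 0, both with their highest value in the UIS of 976, and Myocd was at -0.89 without that library. That library also held the lowest skeletal actin of the UIS, with Acta1 at 82520 normalised counts against 516500 to 638400 in the others.

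In the lists of other cell types most genes also had negative differences, where the median over all genes was -0.03. Only the endothelial sums did not overlap between the groups. The endothelial list summed to 14300 to 15610 on the UIS and 18630 to 23260 in controls, without overlap, and 0 of its 12 genes had a positive difference. Of these 12, 7 had an unadjusted p under 0.05, among them Esam, an endothelial adhesion molecule, at -1.04 (adjusted p = 0.157), and none was called. The pericyte list summed to 9215 to 15060 against 13640 to 18950, with 1 of 11 positive and a median of -0.72. The fibroblast list summed to 18400 to 63150 against 37360 to 65760, with 0 of 14 positive and a median of -0.63. The Schwann cell and nerve list had 1 of 8 positive, 5 with an unadjusted p under 0.05 and a median of -1.1. The adipocyte list had 2 of 9 positive and a median of -1.05, with sums of 9272 to 40610 against 12230 to 32510. The leukocyte list had 3 of 8 positive and a median of -0.23, and the skeletal fibre list 4 of 12 and -0.49. The controls were all females biopsied alive, while the UIS animals included the male 2230 and were sampled after breathing had stopped. The way of sampling and the index type cannot be told apart from these 2 groups. The part of these cells, and of sex, in the lower smooth muscle values was not tested.

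In tolerant animals Acta2 was 1969 ± 799.6 (SD, n = 4), at -0.82 from controls (SE 0.29, unadjusted p = 0.0177, adjusted p = 0.895). Myh11 was 1141 ± 544.2, at -0.98 (SE 0.37, unadjusted p = 0.0246, adjusted p = 0.912). All 10 differences were negative, from -0.98 to -0.20, but 0 of 10 passed limma (0% of all genes), 2 had an unadjusted p under 0.05 (5.23% of all genes) and 0 were lower without overlap (1.36%). edgeR called 0 (0%) and DESeq2 0 (0.428%). This comparison and the one above share the 4 controls. Both groups here carried dual indexes. The endothelial sum was 12860 to 16830 in the tolerant animals, below all controls, with 1 of 12 genes positive and 8 with an unadjusted p under 0.05, and again none was called. Tolerant animal 2218 had the highest Acta2, Actg2, Cnn1, Lmod1, Smtn and Tagln of its group. Tolerant animal 2251 had the lowest Myh11 (533), Lmod1 (189.2), Smtn (602.8), Cnn1 (128.4), Myocd (6.006), Tagln (2136) and Synpo2 (4199). Its library was the one with the high fibroblast and leukocyte sums. Without 2251 the difference of tolerant from control was -0.66 for Myh11 (adjusted p = 0.859) and -0.73 for Acta2 (adjusted p = 0.831), and again no member was called.

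In mice the UIS and the controls overlapped for all 10 genes. Acta2 was 1269 to 2649 in the 3 controls and 857 to 2845 on the 3 UIS, a log2 difference of -0.30 (SE 0.49, adjusted p = 0.801). Myh11 was 738.3 to 2626 against 726.1 to 1496, at -0.40 (SE 0.50, adjusted p = 0.746). The 10 differences ran from -1.43 for Actg2 to 0.13 for Synpo2. Limma called 0 (0% of all genes), 0 had an unadjusted p under 0.05 (11% of all genes) and 0 were lower without overlap (11.7%). edgeR called 0 (0%) and DESeq2 0 (2.31%). Among the mouse controls, M2 had the lowest value in 7 of the 10 genes, all but Lmod1, Smtn and Synpo2.

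**Figure D4:**
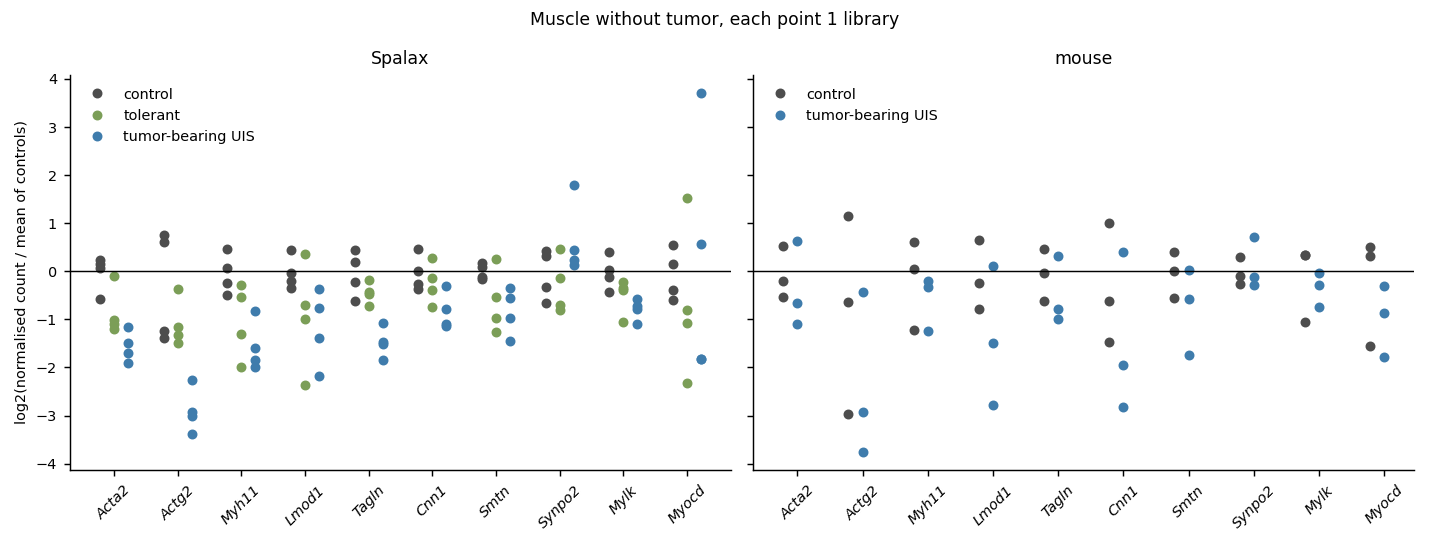
Log2 of each normalised count over the mean of the controls of its species, for the 10 genes in muscle without a lesion, with 1 point per library and 0 marking the control mean. The 4 Spalax UIS points lie under all 4 controls for 7 genes, including Acta2 with 902 to 1511 normalised counts against 2264 to 3964, while the mouse groups overlap for all 10.

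The members did not move as 1 unit. Over the 16 Spalax libraries the correlation of log2 levels with Acta2 was 0.87 for Mylk, 0.84 for Lmod1, 0.76 for Myh11 and 0.69 for Tagln. For Synpo2, Smtn, Actg2, Myocd and Cnn1 it was 0.66, 0.64, 0.50, 0.50 and 0.11. Over the 9 mouse libraries it was 0.93 for Actg2, 0.91 for Tagln and 0.80 for Cnn1, but -0.52 for Myh11, -0.34 for Lmod1 and -0.44 for Mylk. With Myh11 it was 0.91 in Spalax and 0.92 in mouse for Lmod1, 0.84 and 0.89 for Synpo2, 0.54 and 0.96 for Mylk, and 0.59 and 0.94 for Myocd. It was weaker or negative for Smtn (0.33 and 0.31), Tagln (0.21 and -0.29), Cnn1 (0.03 and -0.11) and Actg2 (-0.05 and -0.59). These libraries fall into lesions and muscle, and the values are descriptions of that split as much as of the genes.

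Of 11818 genes shared by symbol and measured in both species, the 5 most like Acta2 by the smaller of their 2 correlations were Klhl13 (0.84 in Spalax, 0.85 in mouse), Dlk2, Gls2, Capn6 and Chrna1. The 5 most like Myh11 were Dffa, Ggact, Coq10a, Etfdh and Tef, each at 0.94 or more in both. Etfdh and Coq10a serve the mitochondrial electron transport chain. None of the other 9 members was among the 5 nearest of either gene.

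**Figure D5:**
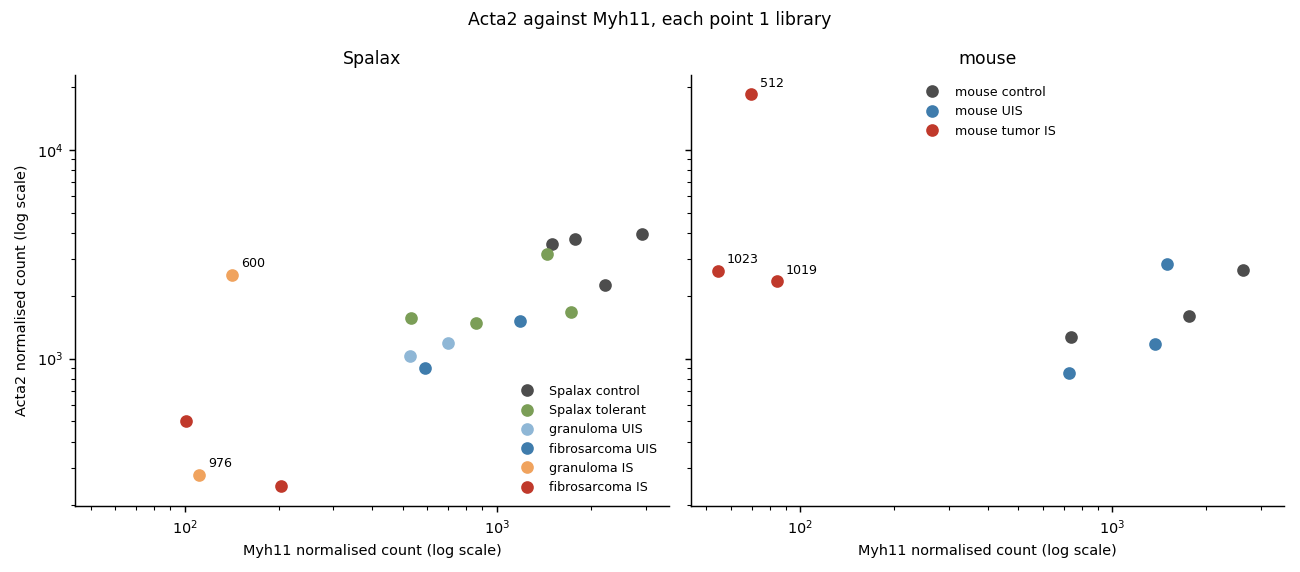
Acta2 against Myh11 in normalised counts (both axes log), with Spalax and mouse libraries in separate panels, 1 point per library and colors for groups. Muscle libraries lie at Myh11 from 527.6 to 2923 in Spalax and lesions of both species at 54.57 to 203.9, where Acta2 runs from 245.3 in fibrosarcoma 2230 to 18510 in mouse 512.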

How the data were processed

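Neck muscle and lesion RNA of 25 libraries was sequenced on Illumina instruments from TruSeq Stranded libraries, single end, 101 cycles. Per the study's methods, reads were trimmed with Trimmomatic and aligned, with TopHat2, to the mouse genome or the published genome of Spalax. The submitters' processing notes name TopHat 1.4.1, HTSeq, DESeq and GRCm38. The strand setting of counting is not given in the sources used here. The deposited values are a signal: read counts per gene that the authors divided by a factor for each library, with 1 table per species, which were tested separately except in the interaction of species and side. In the Spalax table a comma stood for a lower-case t in 2387 gene names and was read as such.

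Every value was a whole multiple of what 1 read was worth in its library (100% within 0.01 of a read), so reads were recovered. The filter kept genes that reached 10 in a number of libraries equal to the size of the smaller group, and these were tested on log2(value + 1), which understates the change of low genes, with limma 3.58.1 (trend) in R 4.3.3. Only the groups compared entered a fit. Benjamini-Hochberg adjusted p of at most 0.05 over all genes tested was called. Alternatives were edgeR 4.0.16 (quasi-likelihood) and DESeq2 1.42.0 on recovered reads, scaling by total reads, a pseudocount of 0.1, no filter, 1 model over all libraries, the animal as a block and each library left out. The scripts were tested on simulated data with known changes. Across 25 pairs of libraries within groups the lowest chi-square per degree of freedom was 44.97, so no pair within a group agreed within sampling noise. Pairs across groups were not compared.

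The labels pair IS and UIS by animal. Same-animal deviations from the group means correlated at 0.00925 in granuloma, -0.00186 in Spalax fibrosarcoma, and 0.125, 0.0469 and 0.178 in mice 1019, 1023 and 512. The genes and lists were chosen with earlier results of these data known. All 10 members were named in each lesion comparison, and the 5 genes most correlated with Acta2 and with Myh11 were named as well. From the other lists only some of the called genes were named. Some left unnamed changed more than named ones of their list, such as Tpm2 (-8.26) and Mef2c (-4.40) in Spalax fibrosarcoma. Animals are the replicates in Spalax and mouse, and with 2 to 4 per group precision is limited by their number.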

Additional observations from a re-analysis of the deposited data

Results flagged for a closer look

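The following values lay far from the other 3 of their group of 4, by the ratio of the gap to the range (Dixon's test at the 95% level). Of 40 groups of 4 tested over the 10 genes, 7 held such a value. Chance alone gives about 1 in 20 for independent, normally distributed values, which counts of several genes from the same libraries need not be. The lesion and UIS groups also pool granuloma and fibrosarcoma animals. Among the Spalax lesions, granuloma 600 stood above the other 3 in Acta2 (2528 normalised counts), Actg2 (1833) and Mylk (1986). Among the tolerant animals, 2218 stood above the others in Acta2 (3163) and 2375 in Myocd (85.78). Among the Spalax UIS libraries, 976 stood above the others in Synpo2 (25360) and Myocd (394.5).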

How the results depend on the processing

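Of 57 single values, 341 of 387 re-computed under other settings kept their direction and side of the threshold, as did 305 of 354 with 1 library left out, and the sign changed 30 times, once with a called value (Tagln in Spalax fibrosarcoma). In granuloma 3 members were called, but 5 with DESeq2, 1 with scaling by total reads, 5 with 1 model over all libraries, and 0 whichever library was left out. In Spalax fibrosarcoma the 4 calls became 2 with scaling by total reads and 0 to 5 with 1 library left out, and lesion against tolerant gave 3 to 6. DESeq2 gave 1 call for fibrosarcoma against granuloma IS, 4 for UIS against control and 2 for the interaction of species and side. That interaction gave 1 with scaling by total reads, 1 with 1 model, 1 without both libraries of mouse 512, a setting chosen after seeing the data, and 0 to 1 with 1 library left out. The animal as a replicate block left 3 calls in granuloma, 3 in Spalax fibrosarcoma (Mylk lost) and 4 in mouse fibrosarcoma (Actg2 lost), and 0 in each interaction, and changed no other call. Leaving out Spalax 976 from the interaction of lesion type and side, also chosen after seeing the data, gave 0.

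With edgeR, DESeq2 and total reads in that order, Acta2 in granuloma turned to 0.39, 0.34 and 0.33, Tagln in Spalax fibrosarcoma to 0.85, 0.80 and 0.65, and Tagln in lesion against tolerant to 0.36, 0.34 and 0.22. Total reads also turned Smtn to 0.52 in Spalax and 0.94 in mouse fibrosarcoma and Synpo2 on the mouse UIS to -0.15, and without mouse 512 Cnn1 was -0.28. That scaling moved the median of all genes by -0.29 for the mouse UIS against control and by -0.27 for the interaction of species and side. With 1 library left out, granuloma gave -2.0 to 1.19 for Acta2, -0.26 to 1.82 for Smtn and -0.67 to 1.51 for Mylk. Spalax fibrosarcoma gave -2.08 to 1.77 for Tagln and mouse fibrosarcoma -0.61 to 0.27 for Smtn. Fibrosarcoma against granuloma IS gave -6.38 to 0.16 for Actg2, and the interaction of lesion type and side -5.91 to 0.63. Lesion against tolerant gave -0.78 to 1.5 for Actg2, -1.05 to 0.39 for Tagln and -0.36 to 0.34 for Smtn. UIS against control gave -0.89 to 0.91 for Myocd in Spalax and -0.18 to 0.32 for Synpo2 in mice. Where a fit without 1 library left 1 in a group, that library was assumed to vary like the others. The cause of these changes was not tested. Over all genes, DESeq2 called 5383 in granuloma against 3581, 520 for UIS against control, 60 for tolerant against control, 342 for the mouse UIS, 153 for the 2 lesions and 84 for their interaction with side, each against 0, and 1711 against 438 for species and side. One model over all libraries called 6314 genes in granuloma, 19 for the 2 lesions, 1 for UIS against control, 1 for tolerant against control (2 with no filter), 3 for lesion type and side and 1206 for species and side. With 1 library left out, the calls over all genes were 0 in granuloma, 0 in Spalax fibrosarcoma without either UIS library, 4258 in mouse fibrosarcoma without the IS of 1023 against 6870, 4 for the mouse UIS without control M2, 3 for lesion type and side without the IS of 2230, and 4 to 787 for species and side. That last count was 38 with the replicate block and 670 without mouse 512.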
